A study of Mus musculus with 30 samples.

Results

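Ptx3 and 9 genes of the interleukin-6 family axis were followed across inhibitors of cell contractility in mouse tail tendon fibroblasts. The 10 genes were 10 of the 35973 genes in the RNA tables. They were chosen by name, with the RNA changes of these libraries already known. Their changes against the control are therefore given below as descriptions with no p-value. Where a member is said to pass the test or not, at an adjusted p below 0.05, that is a description as well. The genes comprised the pentraxin Ptx3, the ligands Il6, Lif, Il11 and Clcf1, the receptor chains Il6st, Il6ra and Osmr, the transcription factor Stat3 and the inhibitor Socs3. Chromatin sites that the authors had annotated to any of the 10 genes were followed as well.

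The cells were primary fibroblasts from tail tendon, all labelled wildtype, held during treatment in medium with 0.1% serum. The 9 poly(A) RNA libraries and 9 ATAC libraries, an assay of accessible chromatin, each fell into 3 groups of 3: the solvent DMSO, blebbistatin at 10 µM, which blocks non-muscle myosin II, and Y27632 at 30 µM, a kinase inhibitor. Another 12 libraries of genomic DNA held 3 from each of 4 groups: neither drug, doxycycline at 10 ng/mL, blebbistatin, and doxycycline with blebbistatin. The labels name no assay for these 12 libraries and do not say what doxycycline induced. They also do not say whether replicates came from separate animals or cultures, so p-values measure the spread between these libraries, which may be technical.

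Interleukin-6 family cytokines bind receptor complexes built around the shared signalling chain gp130, encoded by Il6st, with a second chain that sets which ligand is heard. Kinases of the Jak family bound to these chains phosphorylate Stat3, which enters the nucleus and switches on genes that include its own inhibitor Socs3. Ptx3 is a secreted long pentraxin of innate immunity that is assembled into hyaluronan-rich matrix, and fibroblasts make it in response to inflammatory cytokines.

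RNA depth ran from 23375386 to 37061737 reads in genes per library. All 10 tendon fibroblast markers listed, among them Scx, Tnmd and Mkx, had at least 10 reads in every library. Their summed level with DMSO was 30285 to 31976 RPM (each library's reads scaled to a common total). It was 30227 to 32761 with blebbistatin and 31928 to 33033 with Y27632. Most of that sum was collagen reads: Col1a1 had 224828 to 348213 reads per library, against 49 to 102 for Scx. The sum therefore does not show how the less abundant tendon markers moved. The 6 macrophage markers also had at least 10 reads in every library. Their summed levels were 206 to 228 with DMSO, 315 to 351 with blebbistatin and 305 to 346 with Y27632. Most of those reads were from Lyz2, with 3921 to 9995 per library, against 16 to 50 for C1qa. Fewer than 10 reads in at least 1 library were found for 2 of 4 endothelial, all 4 skeletal muscle and all 3 keratinocyte markers, and Myod1 and Krt1 were at 0 throughout. Schwann cell markers summed to 7.02 to 8.62 RPM with DMSO, 13.7 to 14.8 with blebbistatin and 8.22 to 10.5 with Y27632. All 4 markers of pericytes or smooth muscle had at least 10 reads in every library and summed to 76.6 to 84.1 RPM with DMSO, 92.4 to 102 with blebbistatin and 85.6 to 106 with Y27632. The endothelial markers summed to 3.04 to 3.48, 4.15 to 4.62 and 3.87 to 4.45 RPM in the same groups. The part of these other cell types in the members' results was not tested. In bulk RNA, fewer cells of a type and less RNA per cell cannot be told apart.

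The promoters of the members that the results turn on are shown first, each as 300 bases, from 250 before to 50 after the transcription start, taken from RefSeq on GRCm38.p6, which is the mm10 build. Ptx3 and Il6st are shown because their RNA was highest with DMSO and lowest with blebbistatin with no overlap between groups, and the Ptx3 window also lies in a chromatin site described below. Il6 and Lif are shown because their RNA rose with Y27632 without overlap with DMSO, while their blebbistatin and DMSO libraries overlapped. Capitals mark matches to the searched motifs, and the Ptx3 and Il6st windows hold none. The windows are chr3:66219637-66219936 on the plus strand for Ptx3, chr13:112463820-112464119 on the plus strand for Il6st, chr5:30012864-30013163 on the plus strand for Il6 and chr11:4257318-4257617 on the plus strand for Lif.
Ptx3: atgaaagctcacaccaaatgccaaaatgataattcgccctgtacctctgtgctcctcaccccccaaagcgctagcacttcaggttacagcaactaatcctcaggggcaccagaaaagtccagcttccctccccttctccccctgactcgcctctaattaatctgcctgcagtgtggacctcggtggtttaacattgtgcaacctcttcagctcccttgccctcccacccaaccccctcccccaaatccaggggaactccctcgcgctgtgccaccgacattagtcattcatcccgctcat
Il6st: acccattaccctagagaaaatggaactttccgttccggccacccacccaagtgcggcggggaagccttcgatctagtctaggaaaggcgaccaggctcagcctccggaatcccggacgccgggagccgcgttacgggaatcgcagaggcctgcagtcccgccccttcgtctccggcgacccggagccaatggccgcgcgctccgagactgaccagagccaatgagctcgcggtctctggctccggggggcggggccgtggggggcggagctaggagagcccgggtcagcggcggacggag
Il6: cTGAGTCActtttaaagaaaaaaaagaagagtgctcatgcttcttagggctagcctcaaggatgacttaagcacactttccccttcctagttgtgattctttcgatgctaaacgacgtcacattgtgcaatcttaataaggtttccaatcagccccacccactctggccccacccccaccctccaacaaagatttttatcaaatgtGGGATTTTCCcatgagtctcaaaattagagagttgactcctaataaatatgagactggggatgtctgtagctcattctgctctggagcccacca
Lif: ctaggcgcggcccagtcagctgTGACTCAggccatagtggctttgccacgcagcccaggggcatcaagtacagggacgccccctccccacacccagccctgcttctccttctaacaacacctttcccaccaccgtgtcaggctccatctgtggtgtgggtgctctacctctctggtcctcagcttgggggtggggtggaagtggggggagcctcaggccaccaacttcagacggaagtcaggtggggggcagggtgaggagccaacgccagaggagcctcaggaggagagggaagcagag

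Motifs were searched on both strands in the windows of 9 members, all but Clcf1, with 2 windows for Il11: GGAATG (TEAD), TGANTCA (AP-1), TTCNNNGAA (STAT) and the NF-kappaB motif. The AP-1 letters stood in the windows of 4 members, Il6, Lif, Il11 and Osmr, and in 7.81% of the 32851 promoter windows of the table. In the Il6 window the AP-1 match TGAGTCA began 249 bases before the start, and an NF-kappaB match, GGGATTTTCC, began 44 bases before it. NF-kappaB letters were found in 0.411% of all windows and in no other member. For Lif the AP-1 match TGACTCA began 228 bases before the start. Socs3 was the only member with the STAT letters, as TTCTTAGAA beginning 154 bases before its start, against 8.3% of all windows. Stat3 was the only member with TEAD letters, against 14.7% of all windows. No matches overlapped each other, and a match describes letters in the window, not a bound site.

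Ptx3 was the member with the largest fall, and blebbistatin lowered it much further than Y27632. The gene spans 66219887 to 66225806 on chromosome 3 and lies inside the span of Veph1. Ptx3 had 14844, 15047 and 14607 normalised counts in the DMSO libraries and 1928, 2273 and 1939 in the blebbistatin libraries, where a normalised count is the number of reads divided by the library's size factor. Every blebbistatin library lay far below every DMSO library. The mean fell from 14832 ± 220 (SD, n = 3) to 2046 ± 196 (SD, n = 3), which is a log2 change of -2.86 (standard error, SE, 0.0538), or 7.27-fold lower. This placed Ptx3 10th from the lowest of 14882 genes tested.

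In the table of Y27632, which the authors scaled separately, Ptx3 had 15432, 15620.5 and 15179 normalised counts with DMSO and 9419, 9424 and 9814 with Y27632. The groups again did not overlap. The log2 change was -0.69 (SE 0.0296), or 1.61-fold lower, and it ranked 451st from the lowest of 14833 genes. With the reads of all 9 libraries scaled together, Ptx3 fell in the order DMSO, Y27632, blebbistatin, and no neighbours in that order overlapped. Between the treatments themselves, which also differ in dose, Ptx3 was 4.45-fold lower with blebbistatin than with Y27632, a log2 difference of -2.15 (SE 0.0505).

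If counting ignored strand, reads from Veph1 cannot be told apart from Ptx3 reads wherever exons of both genes overlap. Strand use is not stated, and only the overlap of whole gene spans was examined. Veph1, named after its values were seen, had 87.4, 103 and 94.2 normalised counts with DMSO and 29.1, 26.3 and 39.5 with blebbistatin. The blebbistatin libraries held 28 to 43 reads for Veph1 and 1856 to 2764 for Ptx3. Veph1 had 48.1, 51.4 and 44.0 with Y27632, between the other groups and apart from both. The same uncertainty holds for Il11, which overlaps Tmem190 at 5.51 to 17.7 normalised counts, for Clcf1, which overlaps a noncoding gene at 8.94 to 20.2, and for Il6ra and Stat3, which overlap noncoding genes Gm46811 and Gm46295.

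**Figure D1:**
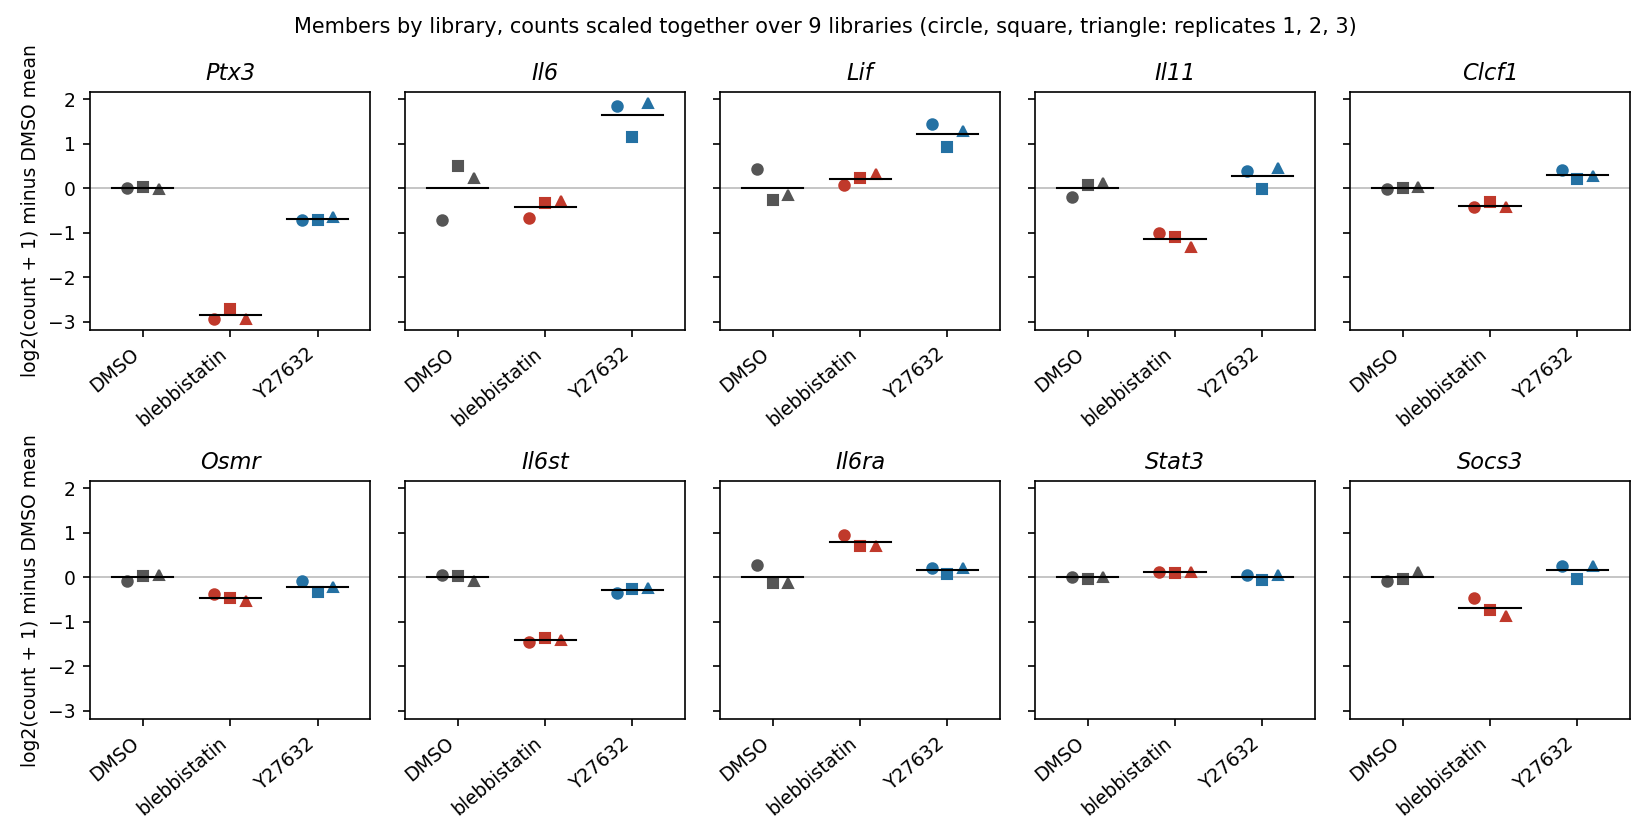
Each panel shows 1 member, with the log2 of its count plus 1, scaled together over 9 RNA libraries, less the DMSO mean, for DMSO, blebbistatin and Y27632; points are libraries (circle, square and triangle for replicates 1, 2 and 3) and lines are group means. Ptx3 and Il6st stand lowest with blebbistatin, Il6 and Lif stand highest with Y27632, and Y27632 replicate 2 is the lowest of its group for Il6, Lif, Il11, Clcf1 and Socs3.

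The ligands did not follow 1 pattern. With blebbistatin, Il11 and Clcf1 fell without overlap with DMSO, while Il6 and Lif overlapped with DMSO. With Y27632, Il6, Lif and Clcf1 rose without overlap, and Il11 overlapped with DMSO.

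Il6, the founding cytokine of the family, was a low-count gene in these cells. It had 7.94, 19.9 and 16.1 normalised counts with DMSO and 8.31, 10.7 and 11.03 with blebbistatin, from 8 to 18 reads per library. These groups overlapped, and the log2 change was -0.43 (SE 0.368). With Y27632 it had 54.1, 32.8 and 56.6 normalised counts, from 37 to 72 reads, against 8.26, 20.6 and 16.7 with DMSO in that table. All 3 Y27632 libraries stood above all 3 DMSO libraries, and the log2 change of Il6 was 1.64 (SE 0.324), or 3.12-fold higher, 40th from the highest of 14833 genes.

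Lif encodes leukaemia inhibitory factor, which signals through gp130 and the chain encoded by Lifr. Its normalised counts were 86.4, 53.0 and 57.4 with DMSO and 67.5, 75.6 and 79.9 with blebbistatin. DMSO replicate 1 was above all blebbistatin libraries and the other two below them, so the groups overlapped, with a log2 change of 0.21 (SE 0.187). With Y27632 Lif had 181, 128 and 164 normalised counts against 89.8, 55.0 and 59.7, with no overlap. The log2 change was 1.21 (SE 0.185), or 2.32-fold higher.

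Il11, a gp130 cytokine associated with fibroblast activation and matrix production, fell with blebbistatin. Its normalised counts were 106, 128 and 132 with DMSO and 60.2, 55.9 and 47.8 with blebbistatin, with no overlap, and it fell 2.21-fold, a log2 change of -1.15 (SE 0.147). In Y27632 libraries it had 165, 125 and 173 against 110.4, 133 and 137 with DMSO. Those groups overlapped through Y27632 replicate 2, and the log2 change was 0.27 (SE 0.138). Without that library Il11 passed the test, at a log2 change of 0.42.

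Clcf1, a cytokine that signals through gp130, shifted by less. It had 436, 445 and 455 normalised counts with DMSO and 329, 356 and 332 with blebbistatin, a log2 change of -0.39 (SE 0.0654). Y27632 libraries had 611, 535 and 558 against 453, 462 and 473, a log2 change of 0.29 (SE 0.0631). Neither comparison overlapped, so Clcf1 lay below DMSO in all blebbistatin libraries and above it in all Y27632 libraries.

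Among the receptor chains, the shared chain fell with both inhibitors while the chain specific for interleukin-6 rose with blebbistatin. Il6st had 49051, 48402 and 44453 normalised counts with DMSO and 17274, 18319 and 17686 with blebbistatin. Each blebbistatin library stood below every DMSO library, and Il6st fell 2.66-fold, a log2 change of -1.41 (SE 0.0400). With Y27632 it had 38661, 41049.6 and 41398 normalised counts against 50994, 50248 and 46195. The groups did not overlap, but the fall was only 1.22-fold, a log2 change of -0.28 (SE 0.0411).

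Osmr encodes the chain that pairs with gp130 to bind oncostatin M. It had 3306, 3612 and 3624 normalised counts with DMSO and 2714, 2559 and 2424 with blebbistatin, without overlap, a log2 change of -0.45 (SE 0.0485). In the Y27632 table it had 3437, 3749 and 3766 with DMSO and 3447, 2899 and 3166 with Y27632. These groups overlapped at Y27632 replicate 1 and DMSO replicate 1. Osmr passed the test there at a log2 change of -0.21 (SE 0.0556), but not without DMSO replicate 2, at -0.19, or without Y27632 replicate 2, at -0.14.

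Il6ra, the chain that binds interleukin-6 itself, had 152, 115 and 115 normalised counts with DMSO and 243, 205 and 207 with blebbistatin. All blebbistatin libraries were higher, by 1.72-fold, a log2 change of 0.78 (SE 0.127). With Y27632 it had 151, 137 and 153 against 158, 119 and 119, with overlap and a log2 change of 0.17 (SE 0.126). Macrophages also express Il6ra, and the summed macrophage markers above were higher in both treated groups than with DMSO; their part in the Il6ra difference was not tested.

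Downstream of the receptors, Stat3 RNA moved little while Socs3 fell with blebbistatin. Stat3 had 6422, 6262 and 6453 normalised counts with DMSO and 6952, 6866 and 6881 with blebbistatin, so all blebbistatin libraries were higher, but only by a log2 change of 0.11 (SE 0.0292). With Y27632 it had 6875, 6344 and 6842 against 6676, 6501 and 6706, which overlapped, at a log2 change of 0.01 (SE 0.0355). That value changed sign without DMSO replicate 2 or without Y27632 replicate 1 or 3, ranging from -0.0085 to 0.05 when libraries were left out. The RNA level says nothing of Stat3 phosphorylation, which was not analysed here.

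Socs3 is induced by Stat3 and blocks gp130 signalling. It had 447, 456 and 511 normalised counts with DMSO and 343, 284 and 256 with blebbistatin, with no overlap, and fell 1.61-fold, a log2 change of -0.69 (SE 0.101). In the Y27632 libraries Socs3 had 586, 479 and 584 against 464, 473 and 531. Y27632 replicate 2 lay inside the DMSO range, and the log2 change was 0.16 (SE 0.0830). Without that library Socs3 passed the test, at 0.26.

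Of the 10 members, all were tested, and with blebbistatin 2 were higher and 6 lower at an adjusted p below 0.05 by limma, 8 of them without overlap between groups. Over all genes tested, 53% passed in that comparison, 26.1% higher and 26.9% lower, and the groups did not overlap for 60.2%. The members were chosen with results of these libraries known, so nothing is read from their shares or medians, here or below. The median log2 change of the members was -0.44, against 0.00 for all genes. With Y27632, 3 members were higher and 3 lower, 5 without overlap, against 35.9% of all genes, 18.1% higher and 17.8% lower, and 48.1% without overlap. The members' median there was 0.16. The authors' deposited tables placed all 10 members on the same side of that threshold, in the same direction, in both comparisons. Both comparisons used the same 3 DMSO libraries, so their values are set side by side only.

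**Figure D2:**
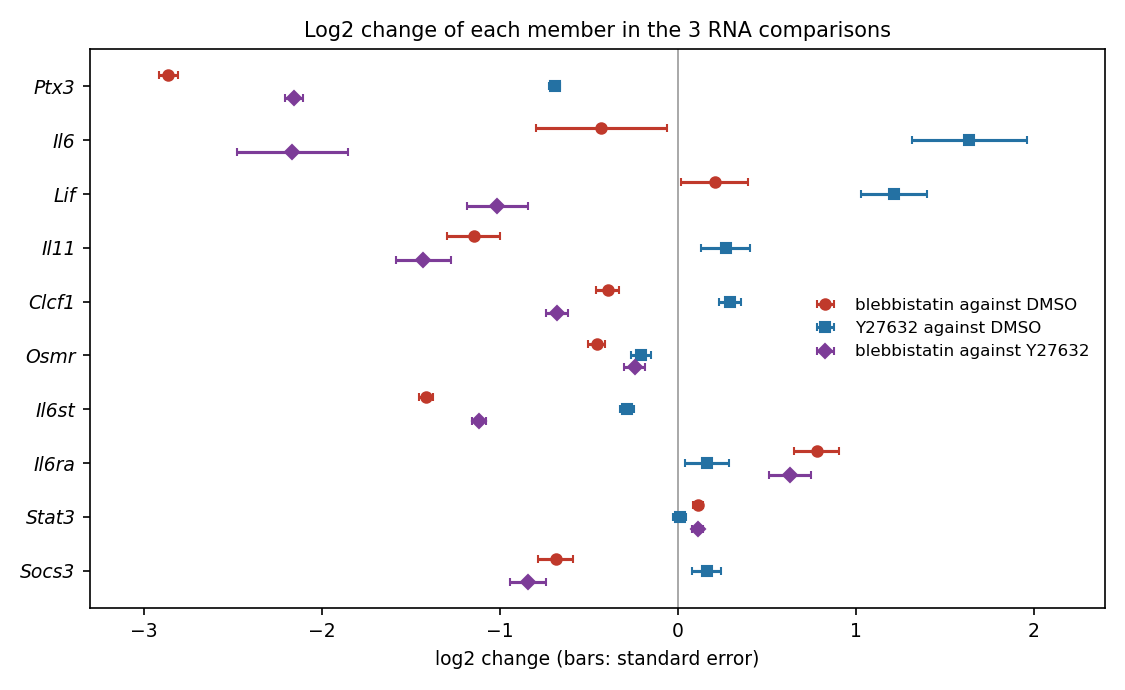
Log2 change of each member with its standard error, for blebbistatin against DMSO (circles), Y27632 against DMSO (squares) and blebbistatin against Y27632 (diamonds). Ptx3 and Il6st lie below 0 in all 3 comparisons, whereas Il6 and Lif lie at 1.64 and 1.21 with Y27632 against DMSO and below 0 for blebbistatin against Y27632.

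Set directly against each other on reads scaled together, blebbistatin was below Y27632 for 8 members and above it for Il6ra and Stat3, and no member's libraries overlapped between the treatments. In that edgeR comparison 53.1% of 14955 genes passed, 26.9% higher and 26.2% lower, and 60.4% had no overlap between the treatments. The members' median log2 difference was -0.93 against 0.01 for all genes. Nothing is read from that median or from the counts, because the members were chosen with results of these libraries known. Il6 differed by -2.16 (SE 0.314), close in size to Ptx3. The other ligands Il11, Lif and Clcf1 differed by -1.43, -1.01 and -0.68 (SE 0.154, 0.172 and 0.0643). For Il6st the difference was -1.12 (SE 0.0398), and for Socs3 -0.84 (SE 0.103). Osmr differed by -0.24 and Il6ra by 0.63 (SE 0.0592 and 0.115). Stat3 differed by 0.11 (SE 0.0326) and no longer passed without Y27632 replicate 2, at 0.08.

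Ordered by level within each gene, the members formed several patterns. Ptx3, Il6st and Osmr were highest with DMSO and lowest with blebbistatin, although Osmr overlapped between DMSO and Y27632. Il6, Il11, Clcf1 and Socs3 were highest with Y27632 and lowest with blebbistatin. Within that order Il6 overlapped between DMSO and blebbistatin, Il11 and Socs3 overlapped between Y27632 and DMSO, and Clcf1 overlapped nowhere. Lif was highest with Y27632, its blebbistatin and DMSO libraries overlapping. Il6ra and Stat3 were highest with blebbistatin, with the Y27632 and DMSO libraries overlapping.

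The genes most like Ptx3 across the 9 RNA libraries included Npr3, Lgr5, Dio3 and Palmd. Likeness was the root mean square difference in log2 level, each gene measured from its own DMSO mean, among 11445 genes with a mean of at least 100. It was 0.207 for Npr3, which encodes a natriuretic peptide clearance receptor, and 0.241 for Lgr5, an R-spondin receptor. Dio3, the deiodinase that inactivates thyroid hormone, was at 0.252, and Palmd at 0.300. With blebbistatin these 4 genes lay at mean log2 levels of -2.41 to -3.02 from DMSO and with Y27632 at -0.46 to -0.90, where Ptx3 lay at -2.86 and -0.69. No member of the interleukin-6 axis was among the 5 genes nearest to Ptx3, and Il6, with a mean below 100, was not compared. With only 5 of 11445 genes named, this says little of how closely the other members followed Ptx3.

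**Figure D3:**
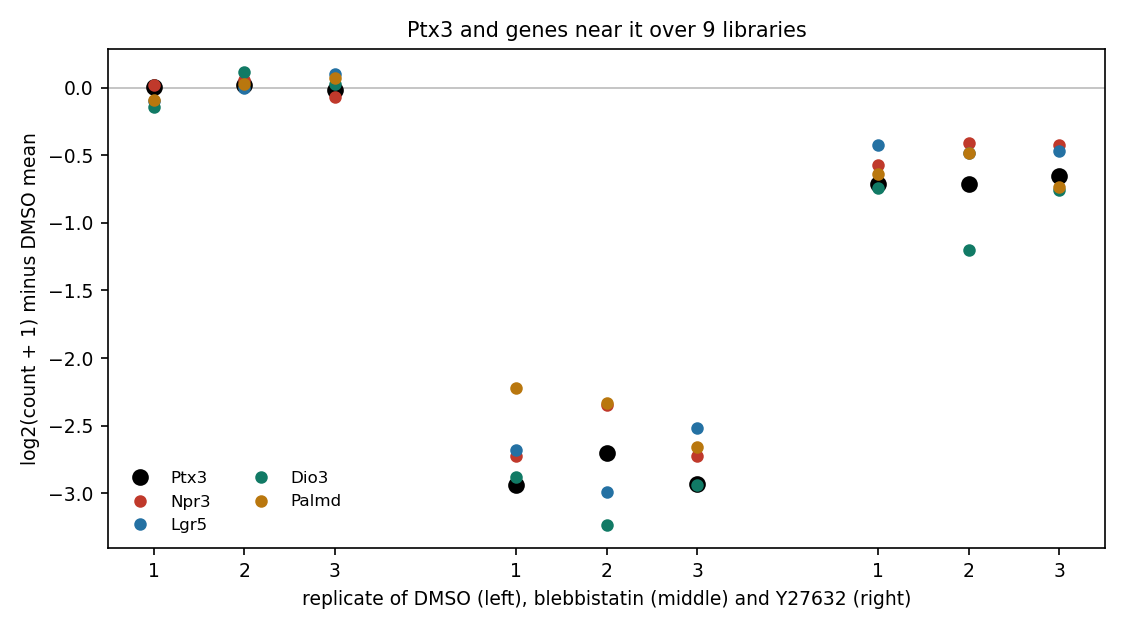
Log2 of the count plus 1 less the DMSO mean, for Ptx3 (black) and 4 of the 5 genes closest to it, in each replicate of DMSO, blebbistatin and Y27632. All 5 genes lie near 0 with DMSO, at mean values of -2.41 to -3.02 with blebbistatin and at -0.46 to -0.90 with Y27632.

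Other genes of the pathway were taken from lists of 63 genes chosen by function, of which 51 passed the filter on low counts and were tested. With blebbistatin 17 were higher and 19 lower, against 26.1% and 26.9% of all genes, with a median log2 change of -0.08. With Y27632 25 were higher and 7 lower, against 18.1% and 17.8% of all genes, with a median of 0.15. Between the treatments, 6 were above and 25 below their Y27632 level in blebbistatin cells, against 26.9% and 26.2% of all genes, with a median of -0.14. These lists were chosen with results of these libraries known, so their counts are descriptions. Genes are named from them below only where they passed with an absolute log2 change of at least 0.5 in some comparison. Their p-values are therefore descriptions as well and not independent tests.

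Of 16 textbook targets of STAT3, all tested, 4 rose and 8 fell with blebbistatin, against 26.1% and 26.9% of all genes. Their median log2 change was -0.20. With Y27632 10 rose and 4 fell, against 18.1% and 17.8% of all genes, with a median of 0.22. Directly compared, none was above and 10 were below their Y27632 level in blebbistatin cells, against 26.9% and 26.2% of all genes, with a median difference of -0.27. Cebpd, an acute-phase transcription factor, fell with blebbistatin, from 695 ± 76.0 to 296 ± 87.4 normalised counts (SD, n = 3; limma adjusted p = 2.14e-05), and rose with Y27632, from 722 ± 79.1 to 965 ± 97.6 (SD, n = 3; limma adjusted p = 0.00145). Myc, a growth regulator, and Bcl3, an atypical NF-kappaB inhibitor, followed the same directions. Myc had log2 changes of -0.56 and 0.68 (limma adjusted p = 1.43e-06 and 1.71e-06), and Bcl3 of -0.43 and 0.81 (limma adjusted p = 0.00822 and 1.97e-05).

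Junb, a component of AP-1, rose with both, from 802 ± 22.2 to 2544 ± 426 normalised counts with Y27632 and from 772 ± 21.3 to 1102 ± 179 with blebbistatin (SD, n = 3; limma adjusted p = 1.4e-08 and 0.000516). Cebpb, a partner of Cebpd, rose with Y27632 at a log2 change of 1.26 (limma adjusted p = 1.7e-07) and did not pass with blebbistatin, at 0.23 (limma adjusted p = 0.152). Cebpb, Cebpd, Myc and Junb were all lower with blebbistatin than with Y27632, by log2 differences of -0.99, -1.62, -1.24 and -1.13 (edgeR adjusted p = 1.67e-05, 3.66e-07, 7.28e-10 and 8.52e-07). Ccnd1, which drives entry into S phase, fell with blebbistatin and with Y27632, at log2 changes of -0.81 and -0.50 (limma adjusted p = 2.23e-09 and 2.35e-07). Vegfa, an angiogenic factor, also fell with both, at -0.68 and -0.18 (limma adjusted p = 1.31e-07 and 0.00818).

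Among 13 kinases, STATs and inhibitors, 4 rose and 6 fell with blebbistatin, against 26.1% and 26.9% of all genes. In the Y27632 libraries 3 rose and 2 fell, against 18.1% and 17.8% of all genes. Socs2, a relative of Socs3 known for restraining growth hormone signalling, fell from 1083 ± 77.6 to 610.3 ± 7.73 normalised counts with blebbistatin and rose from 1125 ± 80.1 to 1517 ± 160 with Y27632 (SD, n = 3; limma adjusted p = 1.33e-07 and 0.000447). Cish, another inhibitor of the same family, had a log2 change of 0.50 with blebbistatin (limma adjusted p = 0.0192) and lost the call without DMSO replicate 2, at 0.40, or blebbistatin replicate 3, at 0.42, and in DESeq2, with an adjusted p of 0.091. Between the treatments Cish differed by 0.31 (edgeR adjusted p = 0.129) and passed without Y27632 replicate 1, at 0.47.

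Of 8 other family ligands only 2 passed the filter on low counts, and 1 of them fell with blebbistatin, against 26.9% of all genes. Of 5 other receptor chains 2 rose and 2 fell with blebbistatin, against 26.1% and 26.9% of all genes. In the Y27632 libraries 1 rose and 1 fell, against 18.1% and 17.8% of all genes. Il31ra, a receptor that pairs with Osmr to bind interleukin-31, was a low-count gene that fell with both, from 35.9 ± 8.73 to 9.31 ± 3.87 normalised counts with blebbistatin and from 37.3 ± 9.08 to 20.1 ± 1.20 with Y27632 (SD, n = 3; limma adjusted p = 0.00043 and 0.0129). The Il31ra call with Y27632 was lost without DMSO replicate 3, at a log2 change of -0.65, and in DESeq2, with an adjusted p of 0.0539. Between the treatments Il31ra differed by -1.02 (edgeR adjusted p = 0.0152), and by -0.77 without blebbistatin replicate 1, where it no longer passed. Il27ra, which pairs with gp130 to bind interleukin-27, rose with blebbistatin, from 41.3 ± 6.50 to 66.4 ± 10.6 normalised counts (SD, n = 3; limma adjusted p = 0.00976). Its log2 change with Y27632 was -0.14 (limma adjusted p = 0.632), and 0.02 without Y27632 replicate 3.

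Other pentraxins were nearly absent from the tested genes: of 5, only Nptx1 was tested. Nptx1, a neuronal pentraxin, ran opposite to Ptx3. It rose from 227 ± 26.7 to 2571 ± 706 normalised counts with blebbistatin and from 236 ± 27.8 to 909 ± 112 with Y27632 (SD, n = 3; limma adjusted p = 3.58e-09 and 1.17e-08).

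Of 6 proteins known to bind Ptx3, 4 were tested. With blebbistatin 1 rose and none fell, against 26.1% and 26.9% of all genes. With Y27632 3 rose and none fell, against 18.1% and 17.8% of all genes. C1qa, a subunit of complement C1q and one of the macrophage markers, had 24.5 ± 4.66 normalised counts with DMSO and 39.5 ± 2.98 with Y27632 (SD, n = 3; limma adjusted p = 0.0248). That call was lost without DMSO replicate 3, at a log2 change of 0.52, without Y27632 replicate 1, 2 or 3, at 0.72, 0.71 and 0.63, in DESeq2, with an adjusted p of 0.128, and without the filter on low counts, at 0.0622.

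NF-kappaB and interleukin-1 input switches on Ptx3 and Il6 in many cells. Of 10 genes of that input, 5 rose, 2 fell and 3 did not pass with blebbistatin, where 26.1% of all genes rose and 26.9% fell. With Y27632 7 rose, none fell and 3 did not pass, where 18.1% of all genes rose and 17.8% fell. Between the treatments 2 were higher and 7 lower with blebbistatin, against 26.9% and 26.2% of all genes. Il1r1, the interleukin-1 receptor, rose with both, from 1669 ± 20.3 to 2475 ± 166 normalised counts with blebbistatin and from 1734 ± 21.0 to 3471 ± 411 with Y27632 (SD, n = 3; limma adjusted p = 6.38e-07 and 1.35e-07). Nfkbiz, a nuclear cofactor for Il6 induction, had log2 changes of 0.64 and 0.79 (limma adjusted p = 3.78e-07 and 2.59e-07). Its difference between the treatments was -0.14 (edgeR adjusted p = 0.0412) and did not pass in DESeq2 or without DMSO replicate 1, blebbistatin replicate 2 or 3, or Y27632 replicate 1, the last at -0.08.

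**Figure D4:**
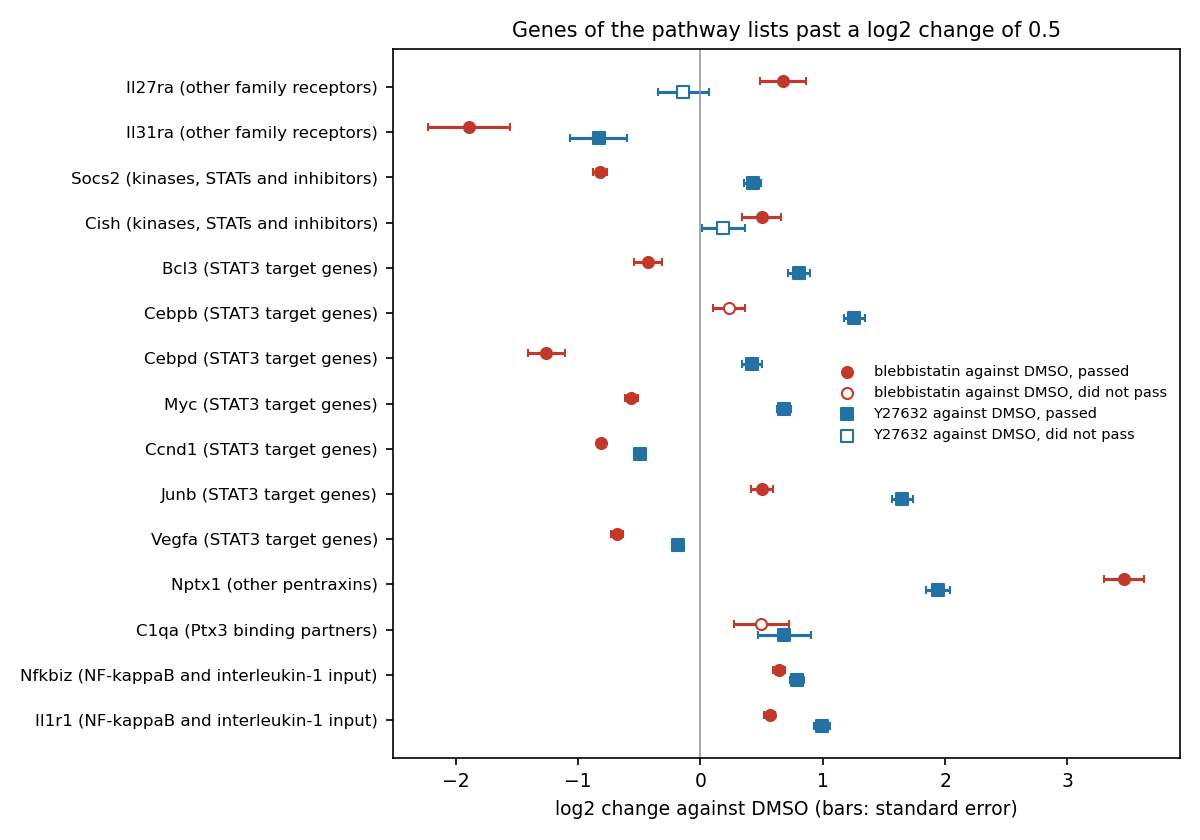
Log2 change against DMSO with its standard error for the described genes of the lists that passed in some comparison with an absolute log2 change of at least 0.5, with blebbistatin (circles) and Y27632 (squares); open symbols did not pass. Cebpd, Myc, Bcl3 and Socs2 lie below 0 with blebbistatin and above 0 with Y27632, while Nptx1 lies at 3.46 and 1.94.

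Chromatin sites near the members were read from 5 lists, which hold only sites past the authors' thresholds with their group means, log2 folds and FDR, so no value per library and no depth were used here. The numbers tested, estimated from the deposited p-values and FDR, make the share of tested sites that was listed 1.54% for ATAC with blebbistatin, 0.335% for ATAC with Y27632, 1.78% for blebbistatin without doxycycline, 9.36% for doxycycline and 8.75% for blebbistatin with doxycycline. Sites annotated to members appeared 14 times, at 11 distinct places, for 6 members: Ptx3 7 times, Lif 3 times, and Il6, Il6st, Osmr and Socs3 once each. Il11, Clcf1, Il6ra and Stat3 had none, and the ATAC list of Y27632 had none for any member. The ATAC blebbistatin list held 98.2% lower sites, the doxycycline list 95.8% higher sites and the list of blebbistatin with doxycycline 99.8% lower sites, so the directions below are those of nearly all sites listed.

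Ptx3 had sites at 4 places, on mm10, 3 of them inside introns of Veph1, the gene that surrounds it. A site in intron 9 of 13 of Veph1, at chr3:66156236-66156476 and 63.5 kb upstream of the Ptx3 start, was in 3 lists. In the authors' deposited table its log2 group mean was 6.58 with doxycycline against 5.39 with neither drug, a fold of 1.19 (FDR 1.15e-05). With doxycycline present, the authors' deposited table gave 5.35 with blebbistatin against 6.58, a fold of -1.23 (FDR 1.3e-06). Without doxycycline, a site at chr3:66156262-66156458, within the same place, had 4.06 with blebbistatin against 5.48 with neither drug, a fold of -1.42 (FDR 0.00431), in the authors' deposited table. The place was thus higher with doxycycline and lower with blebbistatin, whether doxycycline was there or not. The doxycycline group is the treated group of the first value and the reference of the next, so those values are not independent, and the values against neither drug share that group.

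A site in intron 11 of Veph1, at chr3:66118129-66118500 and 102 kb upstream of Ptx3, went the same ways. The authors' deposited tables gave 6.34 with doxycycline against 5.27 with neither drug, a fold of 1.07 (FDR 0.000647), and 5.23 with both drugs, a fold of -1.11 against doxycycline alone (FDR 9.48e-05). Close to the gene, 2 sites were in the doxycycline list only. The lists of that experiment hold no absolute log2 fold below 1.0. Absence from the blebbistatin lists therefore does not show that these 2 sites were unchanged by blebbistatin. In the authors' deposited table, the site in intron 4 of Veph1, at chr3:66215684-66216115, 3987 bases upstream of Ptx3, had 8.01 against 7.01, a fold of 1.0 (FDR 4.13e-06). The site at the Ptx3 promoter, at chr3:66219643-66220167, had 8.21 against 7.18, a fold of 1.03 (FDR 3.18e-05), in the authors' deposited table. It shares 294 of the 300 bases of the Ptx3 promoter printed above. RNA with doxycycline was not analysed here, and no site annotated to Ptx3 was in either ATAC list. An ATAC site annotated to Veph1, at chr3:66309671-66309909 and 89.9 kb from the Ptx3 start, was lower with blebbistatin in the authors' deposited table, with a fold of -1.58 (FDR 0.0331). It belongs to the 10 listings within 100 kb of a member start that are annotated to another gene. The others, near Il11, Lif and Stat3, are not described here.

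**Figure D5:**
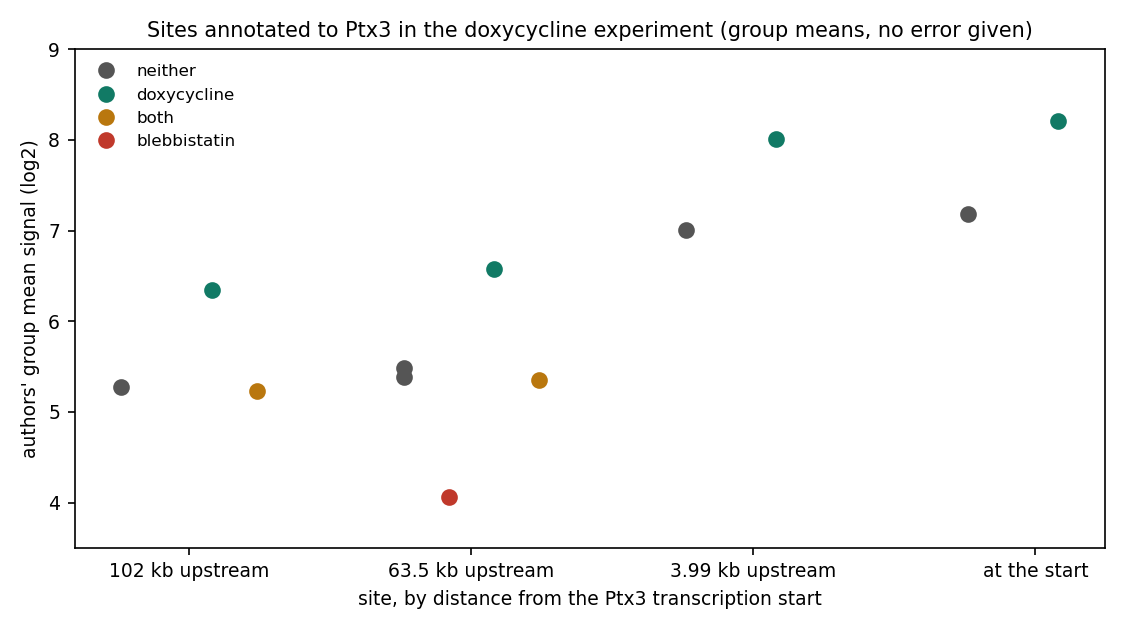
The authors' log2 group means at the 4 places annotated to Ptx3 in the doxycycline experiment, by distance from the Ptx3 start; no error was given, and a group is drawn only where a list holds it. Doxycycline lies above neither drug at all 4 places, and both drugs together lie below doxycycline at the 2 places farthest from the gene; at 63.5 kb the value for neither drug comes from 2 lists, at 5.39 and 5.48.

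Lif had 3 intergenic sites downstream of the gene. An ATAC site at chr11:4299344-4299533 had 5.61 with blebbistatin against 7.20 with DMSO, a fold of -1.59 (FDR 0.0378), in the authors' deposited table. The authors' deposited TEAD motif matches cover the ATAC list of blebbistatin, which held 2 member sites, those of Lif and Il6st, and the Lif site is among the matches, with AAAAATTCCA on the minus strand. In the other experiment a site 225 bases away, at chr11:4299759-4299923, had 5.09 with blebbistatin against 6.17 with neither drug, a fold of -1.08 (FDR 0.00483), in the authors' deposited table. The third, at chr11:4283692-4283975, was higher with doxycycline, 7.29 against 6.13, a fold of 1.15 (FDR 1.97e-07), in the authors' deposited table. Lif RNA itself overlapped between the blebbistatin and DMSO libraries.

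Il6st and Il6 each had a single distant site. At chr13:112417175-112417416, 46.8 kb upstream of Il6st, the authors' deposited table gave an ATAC mean of 5.49 with blebbistatin against 6.90 with DMSO, a fold of -1.41 (FDR 0.0416); the nearest protein-coding span is Ankrd55, 33290 bases away. At chr5:29894609-29894909, 118 kb from Il6, the mean was 5.89 with both drugs against 6.91 with doxycycline, a fold of -1.02 (FDR 2.33e-05), in the authors' deposited table, though the nearest protein-coding span is Dnajb6.

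Osmr and Socs3 were each listed once, with doxycycline. The Osmr site, at its promoter at chr15:6874730-6874823, had 6.04 against 4.98, a fold of 1.06 (FDR 0.000721), and the Socs3 site, intergenic at chr11:117963174-117963820 and 5869 bases from the start, had 9.58 against 8.33, a fold of 1.25 (FDR 1.58e-08), both in the authors' deposited table. The header of that list gives its reference group as blebbistatin alone. Yet at 13 sites that also stand in the list for blebbistatin alone, the reference values lay on average -0.13 (SD 0.0044) from those of neither drug and 1.12 (SD 0.184) from those of blebbistatin alone. The reference is therefore read here as neither drug, which is also the group whose samples the labels tie to this list.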

How the data were processed

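RNA was measured in 9 libraries of tail tendon fibroblasts and accessible chromatin (ATAC) in 9, and the labels name no assay for the 12 genomic DNA libraries of the doxycycline experiment. The authors deposited 2 RNA tables of normalised signal, a read count divided by 1 size factor per library, with their own log2 folds and p-values, and 5 site lists with log2 group means, log2 folds, p-values and FDR. Per the submitters' processing notes, the build was mm10 and the tools included HISAT2, featureCounts, DESeq2, Bowtie2, MACS2, DiffBind and HOMER, with no versions, and strand use is not given in the sources used here. Reads were recovered from the deposited signal: 100% of values were whole within 0.01, and of 35972 genes 0 differed in DMSO reads between the tables.

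Against DMSO, limma 3.58.1 with trend was run in R 4.3.3 on log2(normalised count + 1), within each table. Genes with a mean of at least 10 were tested, and the added 1 can understate the fold change of a low gene. Blebbistatin was compared with Y27632 by the quasi-likelihood test of edgeR 4.0.16 on the reads of 9 libraries. P-values were adjusted by Benjamini-Hochberg over all genes tested, at a threshold of 0.05. The fits were also run on simulated data with known changes. That simulation changed few genes and gave all genes the same spread, unlike these libraries, so it does not measure the error rate here. With 3 libraries per group the precision is limited, most of all for Il6 with 8 to 72 reads. DESeq2 1.42.0, a pseudocount of 10, no filter, other scaling factors, a replicate block and leaving out each library were tried as alternatives.

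The members and gene lists were chosen with earlier results of these data known. Named genes were the 10 members, genes of the lists past the threshold with an absolute log2 change of at least 0.5 in some comparison, the 5 genes closest to Ptx3, and every site annotated to a member; some genes that the rule names are not reported here. Gene names matched the reference table for 93.1% of genes and all 10 members. Peak calling and site tests were the authors', and the number of sites tested was estimated from their deposited p-values and FDR.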

Additional observations from a re-analysis of the deposited data

How the results depend on the processing

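The directions of Ptx3 and Il6st held in every RNA comparison and under every alternative run. Counting each result under each setting, 390 values were classed as kept and 5 lost the call. For a log2 change, kept means the same direction and the same side of the threshold. The values also include counts of genes and sites, which have no direction. The change from 14 to 21 site listings, given below, was among those classed as kept. With 1 library left out, 566 were classed as kept, 15 lost the call, 3 gained it and 4 changed sign. The sign changes were in small changes with Y27632: Stat3 ranged from -0.0085 to 0.0495 and Il27ra from -0.28 to 0.0221, in log2. Members past the threshold numbered 8 with blebbistatin whichever library was left out, 5 to 7 with Y27632 and 9 to 10 between the treatments. Over all genes the count ran from 6994 to 7394, 4304 to 4839 and 7166 to 7985. An FDR below 0.01 kept 12 of the 14 site listings of members. It removed the Lif and Il6st sites, at FDR 0.0378 and 0.0416, which were the only ATAC listings of members. Within 100 kb of a member start lay 21 listings of any annotation, 10 of them annotated to another gene.

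Replicate numbers did not pair the libraries: correlations of same-numbered deviations were between -0.08 and 0.05. With a replicate block the calls numbered 7604, 4633 and 7700, the members called 8, 6 and 10, and the Ptx3 log2 changes were -2.86, -0.69 and -2.16. Depth limits Il6 most, and the site lists gave no depth.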
